A study of Arabidopsis thaliana with 6 samples.

Results

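The 4 arrays of trisomic Arabidopsis leaves were set, with equal weight for each kind of trisomic, against the 2 arrays of diploid leaves, to find what both trisomics share. All 6 arrays of the series entered the comparison. A gene belonged to the common response when its signal on all 4 trisomic arrays lay on the same side of both diploid arrays. This held for 1275 of 5467 expressed genes (23.3%) taken, by locus number, to have 2 copies in every karyotype. It held for 1919 of all 7244 expressed genes. The rule uses the order of the arrays, so that order is given as a description. Whether the trisomics moved by unequal amounts was tested in the same fit.

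The wild type (WT) was diploid Col-0, the common laboratory accession. Trisomy 2 (AAA) carried a complete extra copy of chromosome 2 (Chr.2) and no T-DNA, and came from round-leaved progeny of selfed aur2-1/+ plants. Tertiary trisomy 2 (AAa) carried the aur2-1 T-DNA, and its extra chromosome joined Chr.2 up to AUR2 (AT2G25880), an aurora kinase gene, to the part of Chr.3 before AT3G20040. Rosette leaves were taken from 26-day-old plants grown at 22 °C in 16 h light and 8 h dark, and each array held RNA of 21 to 35 plants, sorted by leaf shape before genotyping. Both trisomics descend from 1 T-DNA line whereas WT does not, so that trisomy and line background cannot be told apart in any comparison with WT. The sources used here do not say whether both arrays of a karyotype were planted separately. The p-values then measure only the spread between these arrays, which may be technical. Fewer cells of a type and less RNA per cell cannot be told apart in whole leaves.

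In a trisomic plant the genes of the extra chromosome are present in 3 copies, and their transcripts commonly rise with copy number. Genes on the other chromosomes keep 2 copies but may also change, which is known as a trans effect of aneuploidy. Extra gene products can unbalance protein complexes, and aneuploid cells of several organisms have been described as showing altered stress, growth and protein quality control genes.

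The median signal of an array was 155 to 171. Log2 signals correlated across genes at 0.983 to 0.987 within a karyotype, at 0.955 to 0.956 between the trisomics and at 0.957 to 0.965 between trisomic and WT arrays. Genes are not independent replicates. The 3' to 5' control for ubiquitin, a measure of RNA integrity, had a mean log2 ratio of 1.75 in WT, 1.62 in AAA and 1.24 in AAa. In the same order, the actin ratio was 3.71, 3.52 and 3.19 and the GAPDH ratio 0.0585, 0.286 and 0.272. The hybridisation controls had a mean signal of 6232, 5882 and 3820 in the same order. The part of these controls in the results was not tested. The aurora kinase gene AUR2 gave signals of 68.4 and 61.0 in WT, 67.3 and 70.4 in AAA and 975 and 971 in AAa, so its high signal was on the AAa arrays alone. Few cell type markers had a matched probe set: 1 of 4 for guard cell, 1 of 5 for trichome, 1 of 4 for shoot meristem and 2 of 6 for root. Vasculature, flower and epidermis had none, so that most markers were not measured. Only 2 of those matched were expressed. They were the guard cell regulator FMA (signal centred without the filter 212 to 229 in WT and 180 to 195 in the trisomics) and the trichome regulator TRY (152 to 182 and 125 to 172). Neither FMA (adjusted p = 0.567) nor TRY (adjusted p = 0.718) was called between trisomics and WT. On the scale used for that test, FMA did not have all 4 trisomic arrays below WT. The 2 root markers with a probe set summed to 7.11 to 9.22 in WT and 14.9 to 84.2 in the trisomics, and the shoot meristem marker lay between 1.64 and 24.1, and the part of these markers in the results was not tested. Genes were taken as expressed from a mean log2 signal of 6.28, a signal of 77.8.

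In both trisomics, 409 genes of Chr.2 up to AUR2 were present in 3 copies, and their median gene stood at 1.44 times the WT level (log2 0.53). The single arrays gave medians of 0.55 and 0.54 in AAA and 0.55 and 0.55 in AAa, so that the 4 arrays hardly differed. Of these genes 273 rose, 3 fell and 312 had all 4 trisomic arrays above WT. The 645 genes of Chr.2 beyond AUR2, tripled in AAA only, had a median log2 ratio of 0.51 in AAA against -0.01 in AAa. For the 658 genes of Chr.3 before AT3G20040, tripled in AAa only, it was 0.00 in AAA against 0.52 in AAa. Their pooled medians of 0.25 and 0.25 are therefore means of a raised and an unraised karyotype. The two-copy genes had a pooled median of 0.00, close to the value at which the arrays were centred. The 64 genes encoded in the plastid had medians of 0.11 and 0.30 in AAA, against 0.01 and -0.01 in AAa, so that their pooled median of 0.12 describes neither karyotype. It was 0.03 without WT replicate 2 and 0.20 without WT replicate 1.

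**Figure D1:**
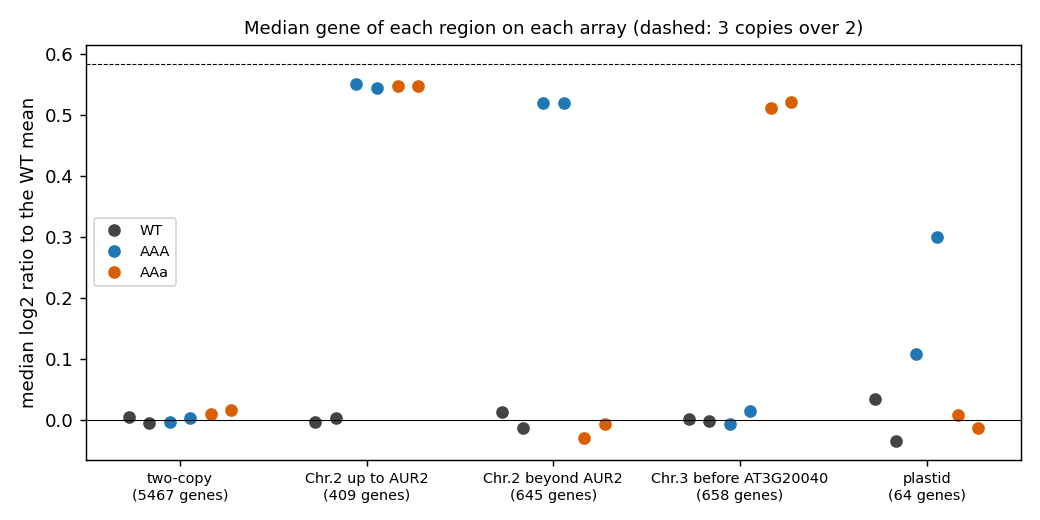
Median log2 ratio to the mean WT log2 signal (vertical axis) of the genes in each region (horizontal axis), 1 point per array, coloured by karyotype. Genes of Chr.2 up to AUR2 stood near 0.55 on all 4 trisomic arrays, whereas the other Chr.2 and Chr.3 parts were raised in 1 karyotype only and two-copy genes lay near 0.

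Among the 5467 two-copy genes, 530 passed the test of both trisomics against WT at an adjusted p below 0.05 (9.69%), and 16.1% of all expressed genes did. Of the two-copy genes 274 rose (5.01%) and 256 fell (4.68%). The calls and the common response coincided for 450 genes (8.23%), of which 229 rose and 221 fell, and these are called the common response genes below. The remaining 825 genes with all 4 trisomic arrays on one side of WT, 403 above and 422 below, did not pass the test, and their pooled log2 ratios had a median size of 0.28. Changes were mostly modest. The median common response gene that rose did so by 0.58 on the log2 scale (quartiles 0.46 and 0.78), the median gene that fell had a log2 ratio of -0.51 (quartiles -0.68 and -0.39), and 24 rose and 20 fell at least 2-fold. The genes that fell were brighter, with a median WT signal of 809 against 298 for those that rose and 364 for all two-copy genes. The part of signal level in the direction of change was not tested. The shares of common response genes were alike on the 4 chromosomes with two-copy genes, at 8.48% of Chr.1, 7.99% of Chr.3, 8.34% of Chr.4 and 8.01% of Chr.5. At the edge of the rule, AT3G53310 was just inside (signals of 174 and 162 in WT, 149 and 162 in AAA and 161 and 161 in AAa) and AT5G20660 just outside (signals of 954 and 1103 in WT, 954 and 945 in AAA and 929.7 and 843 in AAa).

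The number of calls depended on the settings. With the 4 trisomic arrays as a single group, 37 two-copy genes were called in place of 530, and 53 of 79 named genes lost their call, among them AT1G77960 (adjusted p = 0.137) and BETA-VPE (adjusted p = 0.138). Without the filter on dim genes 263 two-copy genes were called. With the arrays as deposited, centred on all expressed genes or quantile normalized, 178, 150 and 154 two-copy genes rose and 418, 478 and 426 fell, and the median two-copy gene then stood at -0.07, -0.10 and -0.09 on the log2 scale. Leaving out single arrays gave 290 calls without WT replicate 2, 318 without AAA replicate 2, 320 without AAA replicate 1 and 340 without AAa replicate 1. With 4 arrays against 2 the smallest two-sided p of an exact permutation test is 0.0667. The genes were therefore tested in a limma fit, where the spread is moderated over all genes.

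The genes that rose most in both trisomics were led by QQS (AT3G30720), a gene found only in Arabidopsis that affects leaf starch. QQS gave signals of 175 and 152 in WT, 1426 and 1294 in AAA and 980.1 and 728 in AAa. Its signal was 6.58-fold higher in the trisomics (log2 2.72, SE 0.13, adjusted p = 2.05e-09), and the lowest trisomic array was far above the higher WT array. AT1G77960, a protein-coding gene with no name in the annotation used, gave signals of 84.0 and 94.2 in WT, 787 and 969 in AAA and 168 and 233 in AAa. It was 4.67-fold higher (log2 2.22, SE 0.17, adjusted p = 2.91e-07). It was far higher in AAA than in AAa, but the lower AAa array still lay above both WT arrays. AT4G16260 gave signals of 64.5 and 41.1 in WT, 281 and 258 in AAA and 189 and 189 in AAa. AT1G43590, which is annotated as a pseudogene, gave signals of 50.9 and 37.3 in WT, 139.6 and 127 in AAA and 192 and 189 in AAa. JRG21, a jasmonate-regulated gene, gave signals of 50.1 and 74.7 in WT, 139 and 163 in AAA and 261 and 239 in AAa. In these last 3 genes both WT signals were below the level used for an expressed gene, so that they entered the test only through the trisomic arrays and no fold is given. The same held for 9 of the 229 common response genes that rose, and for 10 of all 274.

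SUFE2 (AT1G67810), an activator of the cysteine desulfurase that supplies sulfur for iron-sulfur clusters, gave signals of 82.7 and 70.8 in WT, 209.8 and 204 in AAA and 182 and 144 in AAa. Its mean WT signal of 76.7 was below the level used for an expressed gene. It therefore passed the filter only through the trisomic arrays, and no fold is given. BETA-VPE (AT1G62710), a vacuolar processing protease, gave signals of 219 and 233 in WT, 341 and 368 in AAA and 802 and 758 in AAa. This was a 2.33-fold rise (log2 1.22, SE 0.12, adjusted p = 8.57e-06). Its AAA arrays lay between the WT and the AAa arrays. TINY2 (AT5G11590), a transcription factor of the AP2/ERF family, gave signals of 46.7 and 60.7 in WT, 106 and 107 in AAA and 141 and 136 in AAa. Both WT signals of TINY2 were below the level of an expressed gene. Of the unnamed genes, AT1G31690 gave signals of 196 and 264 in WT, 606 and 511 in AAA and 472 and 648 in AAa, which is the same rise in AAA (log2 1.29) and in AAa (log2 1.28) to within the SE of their difference, 0.18. AT1G59930 (2.88-fold), AT1G52000 (2.83-fold), AT3G44970 (2.46-fold) and AT3G28220 (2.33-fold) also rose, with all 4 trisomic arrays above WT. The last 2 genes of the 15 largest, AT1G11670 and AT3G49210, were dim, and AT3G49210 had a log2 ratio of 0.39 (adjusted p = 0.366) without WT replicate 2 and AT1G11670 one of 0.63 (adjusted p = 0.175) without WT replicate 1.

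**Figure D2:**
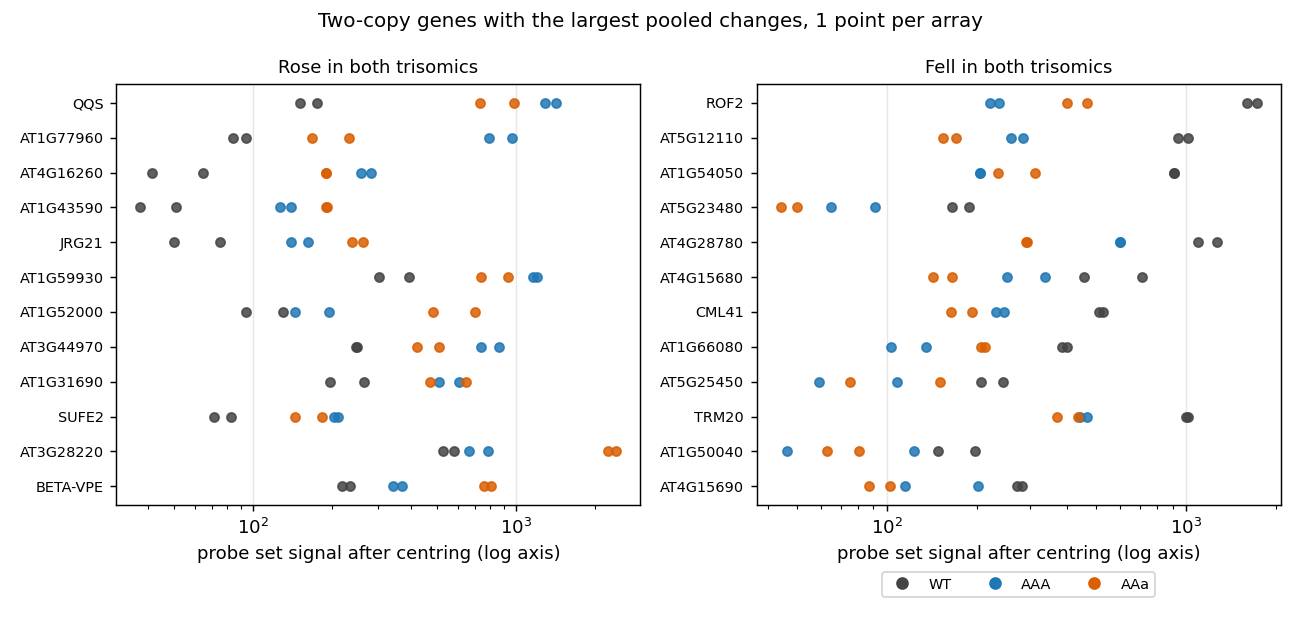
Probe set signal after centring (horizontal log axis) of the 12 two-copy genes with the largest positive (left) and negative (right) pooled log2 ratios, 1 point per array coloured by karyotype. In every gene shown the 4 trisomic arrays lie on one side of both WT arrays, and QQS and ROF2 show the widest gaps.

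The largest fall was that of ROF2 (AT5G48570, also FKBP65), a heat-inducible peptidyl-prolyl isomerase that binds HSP90. ROF2 gave signals of 1596 and 1718 in WT, 237 and 222 in AAA and 466 and 398 in AAa. It was 5.27-fold lower in the trisomics (log2 -2.40, SE 0.12, adjusted p = 2.05e-09). The AAA arrays were the lowest, and no trisomic array came near WT. AT5G12110 gave signals of 1012 and 939 in WT, 259 and 284 in AAA and 170.3 and 154 in AAa. It was 4.65-fold lower (log2 -2.22, SE 0.13, adjusted p = 1.46e-08), the lower values being those of AAa. AT1G54050 gave signals of 911 and 909 in WT, 205 and 205 in AAA and 313 and 234 in AAa. It was 3.86-fold lower (log2 -1.95, SE 0.14, adjusted p = 1.77e-07), with little between the karyotypes. CML41 (AT3G50770), a calmodulin-like calcium sensor, gave signals of 526 and 510.2 in WT, 247 and 231 in AAA and 192 and 164 in AAa. It was 2.52-fold lower (log2 -1.33, SE 0.14, adjusted p = 1.22e-05). TRM20 (AT4G28760), a protein with a motif that recruits the microtubule organiser TON1, gave signals of 997 and 1009 in WT, 441 and 466 in AAA and 434 and 371 in AAa, and its 2.35-fold fall (log2 -1.23, SE 0.12, adjusted p = 4.57e-06) was nearly the same in both trisomics. AT5G23480 was 2.93-fold, AT1G66080 2.49-fold, AT5G62280 2.29-fold, AT1G26800 2.27-fold and AT5G12050 2.17-fold lower. The calls of AT5G25450 (log2 -1.16, adjusted p = 0.0574) and AT1G50040 (log2 -1.01, adjusted p = 0.139) were lost without WT replicate 2.

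The longest group of neighbouring genes that fell lay on Chr.4. From AT4G28706 to AT4G28830 the annotation lists 17 protein-coding genes, 9 were expressed, 7 of these fell, and all 9 had the 4 trisomic arrays below WT. AT4G28706 gave signals of 2567 and 2671 in WT, 1328 and 1178 in AAA and 1235 and 1135 in AAa. AT4G28770 gave signals of 2772 and 2755 in WT, 1258 and 1383 in AAA and 1394 and 1374 in AAa, so that the 4 trisomic arrays lay close together at about the same fraction of WT in AAA and AAa. AT4G28740 gave signals of 2889 and 2906 in WT, 1349.9 and 1444 in AAA and 1577 and 1970.2 in AAa. AT4G28830 gave signals of 354 and 210.2 in WT, 159.7 and 149.9 in AAA and 194 and 132 in AAa. TRM20, described among the largest falls, also belongs to this stretch. AT4G28780 gave signals of 1095 and 1266 in WT, 599 and 600.5 in AAA and 293 and 291 in AAa and was lower in AAa than in AAA, a log2 difference of -1.04 (adjusted p = 5.19e-05). PSAE-1 (AT4G28750), a subunit of photosystem I and the brightest gene of the stretch, gave signals of 31256 and 31807 in WT, 26746 and 29858 in AAA and 19652 and 22418 in AAa. It was 1.29-fold lower (log2 -0.37, SE 0.11, adjusted p = 0.0254), a call lost without WT replicate 2 (adjusted p = 0.122), WT replicate 1 (adjusted p = 0.0843), AAA replicate 1 (adjusted p = 0.0859) or AAa replicate 1 (adjusted p = 0.0737). The 2 genes that were not called, the myosin gene XIH (log2 -0.21, adjusted p = 0.632) and AT4G28820 (log2 -0.48, adjusted p = 0.224), had WT signals of 87.8 to 115, near the level used for an expressed gene.

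The median pooled log2 ratio of the 9 genes was -0.89, with -0.97 in AAA and -0.77 in AAa. Over the 6 genes with a WT signal above 300 it was -1.07, which is 0.477 times the WT level. The 6 expressed genes before the stretch had a median of -0.06 and the 6 after it 0.12. The stretch was bounded by these same values, so that its edges are a description. Next to it, the dim gene AT4G28703 had log2 ratios of 0.15 in AAA and -0.84 in AAa. Among all two-copy genes called, the run of 5 neighbours that fell from AT4G28740 to AT4G28780 was the longest along the 4 chromosomes. A run of 4, from AT4G15660 to AT4G15700 on the same chromosome, came next, and a run of 3 that rose, from AT1G32940 to AT1G33030, was the only other above 2 genes. In the run of 4, AT4G15680 gave signals of 456 and 711 in WT, 337 and 251 in AAA and 143 and 164 in AAa, and its neighbours were 1.73-fold (AT4G15660), 2.31-fold (AT4G15690) and 1.92-fold (AT4G15700) lower. Whether the probe sets of these 4 genes tell their transcripts apart was not tested. Both stretches were picked after their values were seen and have no test as stretches, and the copy number of neither was analysed here.

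**Figure D3:**
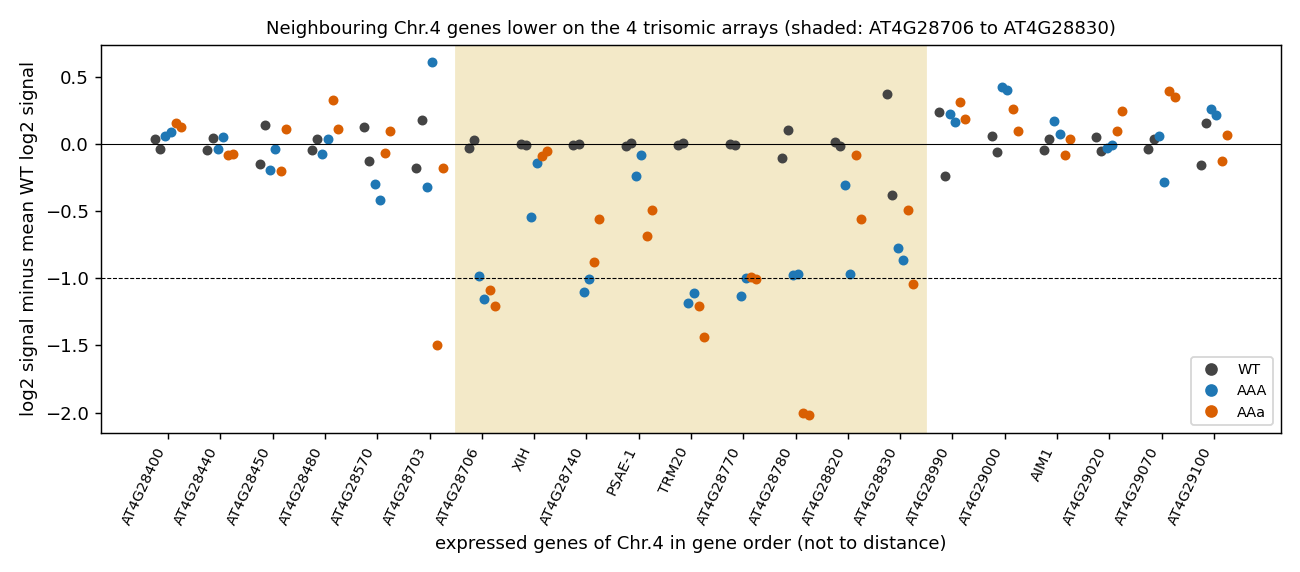
Log2 signal minus the mean WT log2 signal (vertical axis) of 21 expressed neighbouring genes of Chr.4 in gene order (horizontal axis, not to distance), 1 point per array coloured by karyotype. Within the shaded stretch from AT4G28706 to AT4G28830 most trisomic points lie near the dashed line, which marks a level 2-fold below WT, and outside it they return to about 0, apart from the dim gene AT4G28703.

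The common response was not of equal size in both trisomics. The test of AAa against AAA, which does not use the WT arrays for its contrast, called 113 of the 450 common response genes different (25.1%), beside 790 of all two-copy genes (14.5%). Both tests use the same estimate of a gene's spread, so that a gene with a small spread can pass both more easily. Of the 825 genes with all 4 trisomic arrays on one side of WT that did not pass the pooled test, 14 differed (1.7%). The share of 25.1% thus depends on passing the pooled test and cannot be read as a trait of the common response. Of the 113 genes, 82 moved further from WT in AAa (39 that rose and 43 that fell) and 31 moved further in AAA (16 and 15). The other 337 were not called different, which does not show that they moved alike. Leaving out AAA replicate 1 reduced the 113 genes to 55, AAA replicate 2 to 74, AAa replicate 1 to 66 and AAa replicate 2 to 70. Tested singly, AAA against WT called 404 two-copy genes (7.39%) and AAa against WT 809 (14.8%). Of the 450 common response genes, 149 passed in both single comparisons, 69 in AAA alone, 207 in AAa alone and 25 in neither. The single comparisons share the WT arrays, so these counts are not independent.

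The widest gaps went both ways. AT1G52000 gave signals of 93.7 and 130.2 in WT, 145 and 195 in AAA and 700.3 and 485 in AAa, and its log2 difference of AAa from AAA was 1.80 (SE 0.22, adjusted p = 3.86e-05). AT3G28220 gave signals of 530.4 and 583 in WT, 661 and 786 in AAA and 2412 and 2246 in AAa, a gap of 1.69 (adjusted p = 2.89e-07), and AT1G26390, AT5G52390 and AT1G68620 had gaps of 1.32, 1.22 and 1.22. In these 5 genes AAA was above WT by only 0.31 to 0.60 on the log2 scale. In the other direction, AT1G77960 was lower in AAa than in AAA by 2.14 (adjusted p = 1.80e-06). AT4G27300 gave signals of 615 and 572 in WT, 1802 and 1904 in AAA and 692 and 645 in AAa, so that it was 3.12-fold above WT in AAA and 1.13-fold in AAa. ROF2 had fallen further in AAA and AT5G12110 further in AAa, whereas TRM20, CML41, IAA29 and AT1G31690 were not called different. AT4G22470 and AT4G16870 had gaps of 0.95 and 0.95, and their pooled calls were lost without WT replicate 2 (AT4G22470, adjusted p = 0.150) or AAA replicate 1 (AT4G22470, adjusted p = 0.0526) and without WT replicate 1 (AT4G16870, adjusted p = 0.0805).

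**Figure D4:**
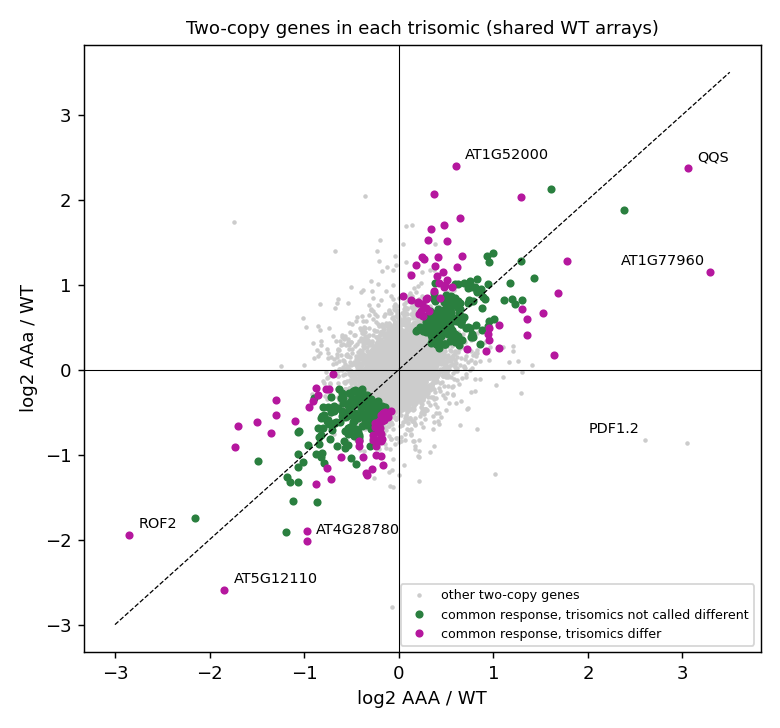
Log2 ratio to WT of each expressed two-copy gene in AAA (horizontal axis) and AAa (vertical axis), whose WT arrays are shared, with common response genes coloured by whether AAa and AAA differed. The 113 genes that differed lie away from the dashed line of equal change and more of them lie nearer the AAa axis, and QQS, AT1G77960 and ROF2 lie farthest out.

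A further 80 two-copy genes passed the pooled test although the arrays overlapped, 45 that rose and 35 that fell, and 67 of them differed between the trisomics, 19 with opposite signs. PDF1.2 (AT5G44420), a plant defensin induced by jasmonate and ethylene, gave signals of 459 and 431 in WT, 2890.3 and 2534 in AAA and 268 and 236 in AAa. It was thus far above WT in AAA and below it in AAa, and its pooled log2 ratio of 0.89 describes neither karyotype. AT3G23550 gave signals of 349.7 and 317 in WT, 3000.0 and 2520.2 in AAA and 209 and 159.7 in AAa, the same order. AT4G00700 gave signals of 407 and 366 in WT, 303 and 356 in AAA and 1060.1 and 967 in AAa, where only AAa was above WT. Such genes are counted among the 530 calls but not in the common response.

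In Chr.2 up to AUR2, tripled in both trisomics, some genes moved well beyond copy number. LCR69 (AT2G02100, also PDF2.2), a small cysteine-rich defensin-like protein, gave signals of 1052 and 1048 in WT, 2853 and 3059 in AAA and 2615 and 3568 in AAa. It was 2.86-fold higher (log2 1.52, SE 0.12, adjusted p = 3.56e-07), which is further from WT than its region's median. AT2G24240 gave signals of 277 and 217 in WT, 570.1 and 485 in AAA and 798 and 791 in AAa. AT2G15690 gave signals of 304 and 360.4 in WT, 864 and 942 in AAA and 705 and 984 in AAa. They were 2.64-fold and 2.62-fold higher. AT2G24390 (3.03-fold) rose from WT signals in part below the level of an expressed gene, and AT2G22880, whose call is given no fold, from WT signals both below it. Only 2 genes fell with all 4 trisomic arrays below WT in spite of their extra copy. AT2G19310 gave signals of 1325 and 1271 in WT, 612 and 677 in AAA and 767 and 762 in AAa. It was 1.85-fold lower (log2 -0.89, SE 0.11, adjusted p = 4.45e-05), and AT2G20560 gave signals of 257 and 315 in WT, 111 and 116 in AAA and 164 and 124 in AAa. It was 2.24-fold lower (log2 -1.16, SE 0.18, adjusted p = 4.40e-04).

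In the parts tripled in a single karyotype, the leading genes were named among those with all 4 trisomic arrays on one side of WT. Their movement in the karyotype with 2 copies therefore follows from that rule. All 4 lay above WT for 163 of 645 genes of Chr.2 beyond AUR2 (25.3%) and below it for 6. For Chr.3 before AT3G20040 this was 145 of 658 (22%) above and 7 below. Among all two-copy genes 11.6% lay above and 11.8% below. On Chr.2 beyond AUR2, AT2G41190 gave signals of 90.6 and 148 in WT, 351 and 395 in AAA and 315 and 374 in AAa, and it rose by as much in AAa, with 2 copies, as in AAA, with 3 (log2 1.57 and 1.69). COR15A (AT2G42540) and COR15B (AT2G42530) encode chloroplast proteins made during cold acclimation. COR15A gave signals of 1455 and 1381 in WT, 3321 and 3575 in AAA and 4172 and 4807 in AAa. COR15B gave signals of 1776 and 1444 in WT, 5651 and 5085 in AAA and 3507 and 3204 in AAa. COR15A was higher in AAa than in AAA and COR15B lower (adjusted p = 0.0272 and 9.60e-04), and both were above WT on every trisomic array. PUB23 (AT2G35930), a U-box ubiquitin ligase, gave signals of 78.1 and 29.3 in WT, 261 and 279 in AAA and 102 and 115 in AAa, with WT near or below the level of an expressed gene. PDF1.2b (AT2G26020), a copy of the defensin gene PDF1.2, gave signals of 1267 and 1205 in WT, 12862 and 10761 in AAA and 1457 and 1390.0 in AAa, so that its place in the common response rests on a small excess in AAa. AT2G47880 (1.82-fold) and AT2G46600 (1.47-fold) fell in both karyotypes, and AT2G29500 (1.59-fold) fell but was not called without WT replicate 1 (adjusted p = 0.102), WT replicate 2 (adjusted p = 0.175), AAA replicate 1 (adjusted p = 0.110), AAa replicate 1 (adjusted p = 0.0831) or AAa replicate 2 (adjusted p = 0.0833).

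On Chr.3 before AT3G20040, AT3G09860 gave signals of 54.2 and 77.3 in WT, 206 and 255 in AAA and 219 and 184 in AAa. The AAA arrays, with 2 copies, overlapped the AAa arrays, and both WT signals were below the level of an expressed gene. AT3G02840 gave signals of 151 and 134 in WT, 309 and 249 in AAA and 542 and 499.5 in AAa, higher in AAa, and TAH18 (AT3G02280) was 2.71-fold higher. Fes1A (AT3G09350), a cofactor of the HSP70 chaperone, gave signals of 743 and 773 in WT, 299 and 275 in AAA and 739 and 743 in AAa. It had fallen in AAA and was within 0.03 of WT on the log2 scale in AAa, which carries the extra copy. AT3G05730 gave signals of 3434 and 3171 in WT, 2210.4 and 2461 in AAA and 2011 and 1924 in AAa. It fell 1.54-fold, and SCPL27, a serine carboxypeptidase-like protein, fell 1.52-fold, but not without WT replicate 2 (adjusted p = 0.214), AAA replicate 2 (adjusted p = 0.0725) or AAa replicate 1 (adjusted p = 0.0797).

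Gene lists were read as counts beside the background of 16.1% of expressed genes called. The lists mix tripled genes with two-copy genes, of which 9.69% were called. They were chosen with earlier results of these data known, so that a count above the background is no evidence for a list. Of 483 listed genes found by name in the annotation, 69 were expressed and matched to a probe set, and 31 of these were called. Most lists therefore rest on few genes. In the heat shock and folding list both expressed members fell in the pooled comparison, ROF2 and Fes1A (median log2 -1.56). Only ROF2 is a two-copy gene and fell in both trisomics. Fes1A, tripled in AAa, was near WT there, so that its pooled fall came from AAA. In the list for jasmonate and ethylene defence all 4 expressed members rose in the pooled comparison, namely PDF1.2b, BETA-VPE, PDF1.2 and JRG21. The last of these passed the filter only through the trisomic arrays, and PDF1.2 lay below WT in AAa (log2 -0.82). The defensins were lower in AAa than in AAA by 3.05 (PDF1.2b) and 3.43 (PDF1.2) on the log2 scale. For cold, drought and abscisic acid, 3 of 4 rose (median 0.92), COR15A, COR15B and the dehydrin COR47 (AT1G20440), which gave signals of 1884 and 2232 in WT, 2364 and 2539 in AAA and 2903 and 3456 in AAa and was not called without WT replicate 1 (adjusted p = 0.129). The other dehydrin, LTI30, had a pooled log2 ratio of 0.32 (adjusted p = 0.226).

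The rapid stress signalling list had 4 members that rose, 1 that fell, CML41, and 1 that was not called, WRKY22 (adjusted p = 0.118). ZAT10 (AT1G27730), a zinc finger repressor induced by many stresses, gave signals of 1497 and 1541 in WT, 2813 and 3078 in AAA and 1918 and 1945 in AAa. It was 1.57-fold higher (log2 0.65, SE 0.10, adjusted p = 2.82e-04). WRKY53 (AT4G23810), a transcription factor of defence and leaf senescence, gave signals of 705 and 729 in WT, 1082 and 1010.3 in AAA and 933 and 997 in AAa. This was a 1.4-fold rise of like size in both trisomics. PUB23 rose in both trisomics, whereas the related PUB19 (AT1G60190) gave signals of 114 and 79.0 in WT, 84.8 and 129 in AAA and 318 and 299 in AAa, with AAA overlapping WT, and without WT replicate 2 it was not called (adjusted p = 0.107). Of the autophagy list 2 of 9 rose, both tripled in at least 1 trisomic. Of its 5 two-copy members 0 were called, and the list had a median log2 ratio of -0.10. ATG8D (AT2G05630), tripled in both trisomics, gave signals of 364 and 339 in WT, 461 and 529 in AAA and 559 and 563 in AAa. APG8H (AT3G15580), tripled in AAa, gave signals of 2893 and 2235 in WT, 2979.9 and 2629 in AAA and 4959 and 3931 in AAa. It was not called without WT replicate 2 (adjusted p = 0.249), AAA replicate 1 (adjusted p = 0.0714) or AAa replicate 1 (adjusted p = 0.0633). BZIP60 (AT1G42990), a transcription factor of the unfolded protein response, was the only expressed member of its list and gave signals of 1386 and 1418 in WT, 2038 and 1797 in AAA and 1999 and 1714 in AAa. This was a 1.34-fold rise (log2 0.42, SE 0.11, adjusted p = 0.0111) that was lost without WT replicate 1 (adjusted p = 0.0612) or AAA replicate 1 (adjusted p = 0.0526).

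Falls also came from the auxin, chlorophyll and glucosinolate lists. IAA29 (AT4G32280), an Aux/IAA repressor of auxin signalling, gave signals of 335 and 364 in WT, 181 and 201 in AAA and 155 and 197 in AAa. It was 1.91-fold lower (log2 -0.93, SE 0.16, adjusted p = 7.45e-04). HAT2 (AT5G47370), an auxin-induced homeodomain protein, gave signals of 762 and 571 in WT, 410.3 and 484 in AAA and 459.5 and 439.8 in AAa. It fell 1.47-fold, with the same log2 ratio in AAA (-0.57) and AAa (-0.55), but without WT replicate 1 it was not called (adjusted p = 0.166). GH3.3 (AT2G23170), which conjugates auxin to amino acids and is tripled in both trisomics, fell in AAA (log2 -1.32) while AAa stood at 0.35, and its pooled call was lost with any 1 of the 6 arrays left out (adjusted p from 0.0650 to 0.152). Thus 3 of 4 expressed members of the auxin list fell (median -0.52), and WES1 did not pass (adjusted p = 0.692).

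In the chlorophyll synthesis list 3 of 5 fell (median -0.36). PORB (AT4G27440), which reduces protochlorophyllide, gave signals of 12513 and 14225 in WT, 12304 and 12869 in AAA and 7450.2 and 7735 in AAa, where the AAA arrays overlapped WT and the AAa arrays lay below it. HEMB1 (AT1G69740), which makes porphobilinogen, gave signals of 3773 and 3994 in WT, 3311 and 2997 in AAA and 2638 and 2888 in AAa and was the only 1 of the 3 with all 4 trisomic arrays below WT. GSA1 (AT5G63570), which makes the precursor 5-aminolevulinic acid, fell 1.28-fold. Without WT replicate 2 none of the 3 was called (adjusted p = 0.0803 for PORB, 0.0873 for HEMB1 and 0.345 for GSA1), and GSA1 was also lost without AAA replicate 1 (adjusted p = 0.0831), AAA replicate 2 (adjusted p = 0.0787) or AAa replicate 2 (adjusted p = 0.0914). Of 8 expressed nuclear photosynthesis genes only PSAE-1 fell, and the list had a median of -0.17. In the glucosinolate list 2 of 3 fell. GSTU20 (AT1G78370), a glutathione transferase, gave signals of 5814 and 5034 in WT, 5663 and 4724 in AAA and 2290.2 and 1885 in AAa. BCAT4 (AT3G19710), which starts the chain elongation of methionine, is tripled in AAa. Its signals were 2804 and 2823 in WT, 2794 and 2870.0 in AAA and 1264 and 1189 in AAa. In both genes the AAA arrays overlapped WT and the AAa arrays lay below it, so that neither belongs to the common response.

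DFR (AT5G42800), an enzyme of anthocyanin synthesis, gave signals of 67.3 and 51.6 in WT, 109 and 93.9 in AAA and 108 and 125 in AAa, with both WT signals below the level of an expressed gene. It was the 1 of 3 expressed members of the flavonoid list to rise, but not without WT replicate 2 (adjusted p = 0.134), AAA replicate 1 (adjusted p = 0.0680) or AAa replicate 2 (adjusted p = 0.0669). WRKY6, a senescence factor, rose 1.51-fold (1 of 2), but not without WT replicate 1 (adjusted p = 0.105) or AAA replicate 2 (adjusted p = 0.0541). The glutaredoxin GRX480 and UGT76B1, which conjugates salicylic acid, were the only members of their lists counted as expressed. For GRX480 this says little, because only 1 of 13 listed CC-type glutaredoxins was found by name. The Chr.4 run from AT4G15660 to AT4G15700, which fell, has locus numbers of glutaredoxin genes and was not counted in this list. GRX480 gave signals of 187 and 139 in WT, 153 and 179.6 in AAA and 458 and 441 in AAa. UGT76B1, which is not among the two-copy genes, gave signals of 329 and 317 in WT, 202 and 195 in AAA and 1391 and 1457 in AAa. The AAa arrays were above WT for both, whereas AAA overlapped WT for GRX480 and lay below it for UGT76B1. Without WT replicate 2 GRX480 was not called (adjusted p = 0.0777). No member of the lists for the proteasome (1 expressed), photorespiration (1), cell wall loosening (5), cell cycle (1), circadian clock (1) or leaf shape (1) was called, nor was the reference gene GAPC2 (log2 -0.08, adjusted p = 0.678). QQS was the only 1 of 3 expressed starch and sugar genes to be called. The lists for oxidative stress, lipid transfer, DNA damage and flowering, and the markers of shoot meristem and root, held no member counted as expressed. The markers of vasculature, flower and epidermis had no matched probe set and were not measured here. Listed genes without a matched probe set cannot be called silent.

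**Figure D5:**
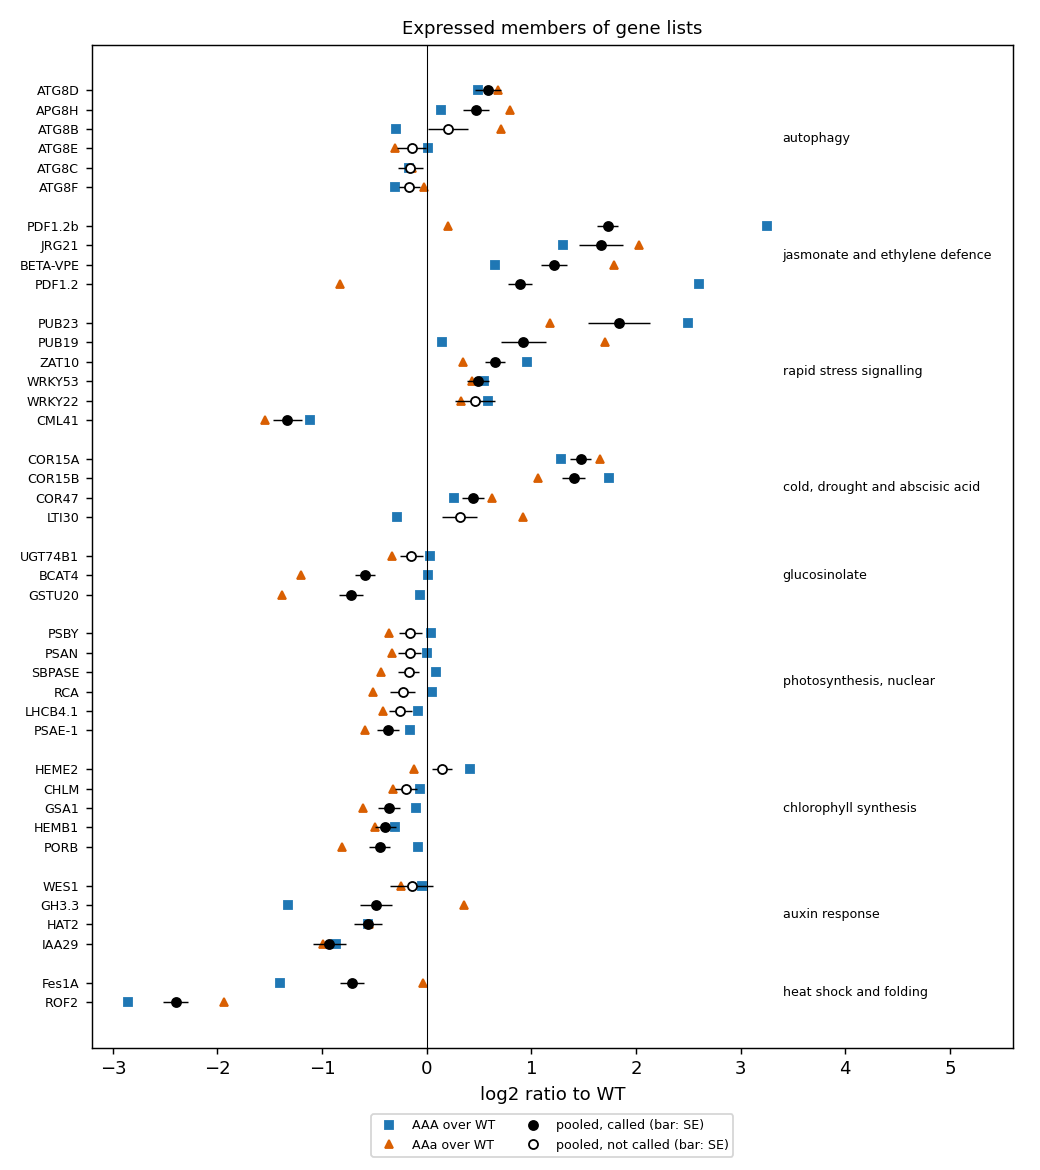
Log2 ratio to WT (horizontal axis) of up to 6 expressed members per gene list, those with the smallest p, in AAA (squares), AAa (triangles) and both pooled (circles with SE, filled where called). Members of the jasmonate, cold and rapid stress lists lie mostly to the right, ROF2 and IAA29 lie to the left in both karyotypes, and the defensin, glucosinolate and PORB values are split between AAA and AAa.

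Of the 450 common response genes 73 carry a symbol, 38 that rose and 35 that fell, and the examples given here were chosen from them after their values were seen. Among those that rose, the sugar transporter SWEET1 (AT1G21460) gave signals of 723 and 603 in WT, 883 and 967 in AAA and 1307 and 1317 in AAa. Its relative SWEET4 (AT3G28007) gave signals of 158 and 179 in WT, 252 and 229.9 in AAA and 247 and 277 in AAa. Of 5 expressed two-copy SWEET genes only these 2 were called. The mitochondrial isocitrate dehydrogenase subunit IDH-V (AT5G03290) was 1.6-fold higher. ATPMEPCRB (AT4G02330), a pectin methylesterase, gave signals of 521 and 604 in WT, 986 and 885 in AAA and 1024 and 917 in AAa. It was 1.7-fold higher to nearly the same degree in both trisomics. Among those that fell, SP1L4 (AT5G15600), related to the microtubule protein SPIRAL1, gave signals of 189.5 and 157 in WT, 70.2 and 53.2 in AAA and 121 and 104 in AAa. The tubulin TUB6 (AT5G12250) fell 1.24-fold, the expansin EXPA9 (AT5G02260) 1.71-fold and the endoglucanase GH9B7 (AT1G75680) 1.36-fold. Of 5 expressed two-copy expansin genes 2 fell and 0 rose.

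Further genes with a symbol also fell. TRXF2 (AT5G16400), a thioredoxin of carbon fixation, gave signals of 2669 and 2909 in WT, 1801 and 2106 in AAA and 2103 and 2057 in AAa. TAPX (AT1G77490), the thylakoid ascorbate peroxidase, gave signals of 4207 and 3366 in WT, 3093 and 2919.8 in AAA and 2658 and 2790.4 in AAa. CHLI2 (AT5G45930), a magnesium chelatase subunit, fell 1.28-fold. ACLA-1 (AT1G10670), a subunit of ATP-citrate lyase that makes cytosolic acetyl-CoA, gave signals of 4681 and 4555 in WT, 3542 and 4129.6 in AAA and 2635 and 2575 in AAa, lower in AAa than in AAA (adjusted p = 0.00222). SGT1A (AT4G23570), a co-chaperone of HSP90, gave signals of 2960.1 and 3195 in WT, 1486 and 1704 in AAA and 2352 and 2202 in AAa, lower in AAA than in AAa (adjusted p = 0.00431). RALFL24 (AT3G23805), a peptide of the RALF family, gave signals of 304 and 313 in WT, 238 and 191 in AAA and 166 and 167 in AAa. It fell 1.64-fold (log2 -0.71, SE 0.15, adjusted p = 0.00483).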

How the data were processed

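RNA was measured on 6 Affymetrix ATH1 arrays. The deposited values are linear signal intensities per probe set that the authors made with GCOS (version not given in the sources used). The authors' own GC-RMA and vsn values were not used. Signals below 1 were set to 1 and taken to log2. Probe sets with a mean log2 at or above the 40th percentile (6.28, a signal of 77.8) of 22746 non-control probe sets counted as expressed. Of 22810 probe sets 13436 were matched to 1 gene by the platform annotation and the RefSeq gene table (TAIR10.1, for names and order only), 503 named several genes, 77 were unmatched and 8730 were unnamed there. The brightest probe set per gene was kept (7244 genes), and arrays were centred on 4641 genes of Chr.1, Chr.4 and Chr.5. Signals in the text are after centring unless stated otherwise. Locus numbers at both breakpoints divided the regions. Chr.1, Chr.4, Chr.5 and the rest of Chr.3, from AT3G20040 on, supplied the two-copy genes.

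Tests used limma 3.58.1 under R 4.3.3 (lmFit, eBayes with intensity trend, two-sided) in 1 fit of 6 arrays and 3 karyotypes with 3 residual and 13.5 prior degrees of freedom. The contrasts were the mean of AAA and AAa minus WT, and AAa minus AAA. The Benjamini-Hochberg adjustment ran over all 7244 genes, and "rose", "fell" and "differed" mean an adjusted p below 0.05. The script was tested on simulated data. Alternatives were scaling, filter, floor, trend, grouping, probe set averaging, a replicate block and leaving out each array. Named genes were the 15 largest each way among two-copy genes past the threshold with all 4 trisomic arrays on one side, the 5 and 3 largest each way in the tripled regions, the 5 largest each way for AAa minus AAA, up to 6 list members with the smallest p, AUR2 and reference genes. The members, 33 lists and rules were chosen with earlier results of these data known. A planned look at promoter motifs was not run because no promoter sequences were used here.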

Additional observations from a re-analysis of the deposited data

Results flagged for a closer look

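Among the named two-copy genes called in the pooled comparison, 30 differed between AAa and AAA by the limma test of the difference at an adjusted p below 0.05, 13 with a higher value in AAa and 17 with a lower one. The values are log2 AAa minus AAA.

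The AAa value was higher for AT1G52000 (1.80), AT3G28220 (1.69), PUB19 (1.56), GRX480 (1.44), AT1G26390 (1.32), AT5G52390 (1.22), AT1G68620 (1.22), BETA-VPE (1.14), JRG21 (0.73) and COR47 (0.37), all of which rose in the pooled comparison. It was also higher for AT1G26800 (1.03), ROF2 (0.91) and AT1G66080 (0.83), which fell, so that AAA lay further below WT.

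The AAa value was lower for PSAE-1 (-0.43), AT5G12050 (-0.47), GSA1 (-0.51), PORB (-0.73), AT5G12110 (-0.75), AT4G15680 (-0.93), AT4G16870 (-0.95), AT4G28780 (-1.04) and GSTU20 (-1.32), which fell in the pooled comparison. It was lower for AT1G59930 (-0.51), ZAT10 (-0.61), QQS (-0.69), AT3G44970 (-0.78), AT4G22470 (-0.95), AT4G27300 (-1.47), AT1G77960 (-2.14) and PDF1.2 (-3.43), which rose. PDF1.2 was the only 1 of the 30 with opposite signs, at 2.60 in AAA and -0.82 in AAa. The 30 genes were named in part for this difference, so that their number is not a share of all genes.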

How the results depend on the processing

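Of 79 named genes called in the main comparison none reversed its direction under the settings that gave it a value, 17 in most cases and 16 for those that the stricter filter removed. Of these, 15 stayed called under all 17 settings and 11 under the 16 that gave a value. The main limit is the arrays, 2 per karyotype. With the 4 trisomic arrays as a single group, so that the difference between AAA and AAa enters the spread, 37 two-copy genes were called (18 rose, 19 fell), 105 of all expressed genes, 37 in the common response and 7 gene list members, in place of 530, 274, 256, 1167, 450 and 31.

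Without the filter on dim genes 263 two-copy genes were called (103 rose, 160 fell, 39.2% rose in place of 51.7%), 564 of all genes, 242 in the common response, 68 with unequal trisomics (113 before) and 2031 with all 4 arrays on one side (1275 before). With the filter at the 60th percentile 176 rose and 825 were on one side. Without the intensity trend 346 two-copy genes were called and 147 fell. As deposited, centred on all expressed genes or quantile normalized, 178, 150 and 154 rose and 418, 478 and 426 fell, or 29.9%, 23.9% and 26.6% rose. A margin of 0.2 on the log2 scale, chosen after seeing the data, left 329 of the 1275. Without the genes of the Chr.4 stretch, also chosen later, 523 two-copy genes were called.

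The region medians moved with the scale by more than the spread between arrays. The two-copy median was -0.0717 as deposited, -0.0960 centred on all genes, -0.00750 centred on all two-copy genes, -0.0880 quantile normalized, -0.0400 without the filter and -0.0207 with the stricter filter. In the same order, Chr.2 up to AUR2 was at 0.45, 0.43, 0.52, 0.44 and 0.37 (stricter filter within the spread), Chr.3 before AT3G20040 at 0.18, 0.15, 0.24, 0.16 and 0.17, and Chr.2 beyond AUR2, leaving out the two-copy centring, at 0.17, 0.15, 0.15, 0.19 and 0.23. Plastid genes were at 0.0211 when centred on all genes.

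Leaving out 1 array at a time gave 290 to 388 two-copy calls (162 to 215 rose, 122 to 188 fell), 709 to 884 over all genes, 1552 to 2536 genes on one side, 278 to 352 in the common response, 55 to 129 with unequal trisomics and 22 to 28 list members. Medians ranged from -0.00519 to 0.00667 (two-copy), 0.52 to 0.54 (Chr.2 up to AUR2), 0.24 to 0.25 (Chr.2 beyond AUR2), 0.24 to 0.26 (Chr.3 before AT3G20040) and 0.0270 to 0.195 (plastid). The lone array of a karyotype was assumed to vary like the others.

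Replicate numbers did not pair the samples (correlations of deviations -0.04, 0.02 and -0.05). With a replicate block 526 two-copy genes were called (280 rose, 246 fell), and 436 in the common response, 426 of them among the 450. GH3.3 was the only named gene to lose its call with the block (adjusted p = 0.0548).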

Other observations

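Gene families with several expressed two-copy members were looked at after the leading genes had been seen. Of 22 UDP-glycosyltransferase genes, which attach sugars to hormones, lignin precursors and toxins, 5 rose and 0 fell (median log2 0.17, beside 5.01% rose and 4.68% fell of all two-copy genes). UGT72E1 (AT3G50740), which glucosylates lignin precursors, gave signals of 258 and 187 in WT, 529 and 558 in AAA and 358 and 365 in AAa and was 2.02-fold higher (log2 1.01, SE 0.14, adjusted p = 1.96e-04), UGT85A5 (AT1G22370), whose WT signals were both below the level of an expressed gene, gave signals of 66.9 and 74.9 in WT, 123 and 117 in AAA and 137 and 156 in AAa, and GT72B1 (AT4G01070) gave signals of 1233 and 1083 in WT, 1347 and 1377 in AAA and 1850.0 and 1776 in AAa. Of 4 methionine sulfoxide reductase genes, which repair oxidised methionine, 2 rose. MSRB9 (AT4G21850) gave signals of 207 and 219 in WT, 276 and 279 in AAA and 464 and 529 in AAa and was 1.74-fold higher (log2 0.80, SE 0.13, adjusted p = 7.44e-04), and MSRB6 (AT4G04840) was 1.29-fold higher. Of 5 calmodulin-like calcium sensors, CML23 (1.5-fold) and CML38 (1.52-fold) rose and CML41 fell. Of 10 ubiquitin-specific protease genes 2 rose, UBP20 (1.52-fold) and UBP24 (1.56-fold), and of 9 genes of the IQD family, calmodulin-binding proteins found on microtubules, 2 fell, IQD28 (1.38-fold) and IQD30 (1.49-fold). The families were picked after their values were seen and were not tested as groups.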
